A study of Mus musculus with 16 samples.

Results

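The pumps that fill the calcium store of the cell, the small proteins that regulate them, the channels that empty the store and the proteins that hold calcium inside it were compared between interscapular brown adipose tissue (BAT) and subcutaneous white adipose tissue (sWAT) of mice. The set comprised 10 genes: the pumps Atp2a1, Atp2a2 and Atp2a3, their regulators Sln and Pln, the release channels Ryr1, Ryr2 and Ryr3, and the calcium-binding proteins Casq1 and Casq2. Members were the probe sets whose platform gene symbol was exactly 1 of these names, which gave 23 of the 45101 probe sets on the array and 10 of the 18194 genes that could be formed from them. BAT was represented by 4 replicates and sWAT by 4 replicates, each hybridized to 2 Affymetrix mouse genome arrays, for 16 arrays in all. All samples came from untreated LACA (Laboratory Animal Centre A-strain) mice labelled male, fed standard chow and killed at a weight of 25 ± 3 g, with no age given. The question was which forms of the store machinery differ between the tissues, and whether the forms known from muscle differ in the same way as the forms found in most cells.

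Calcium is pumped into the sarcoplasmic or endoplasmic reticulum by the SERCA ATPases, encoded by the Atp2a genes. Atp2a1 encodes the SERCA1 pump of fast skeletal muscle, Atp2a2 encodes SERCA2, whose splice forms serve slow and heart muscle and most other cells, and Atp2a3 encodes SERCA3, known from blood cells, endothelium and epithelia. Ryanodine receptors let calcium back out, calsequestrins buffer it in the lumen, and sarcolipin (Sln) and phospholamban (Pln) are short membrane proteins that bind the pump and restrain calcium transport. BAT is known for heat made in mitochondria through the uncoupling protein Ucp1, and pumping of calcium that leaks back has been described as another source of heat in muscle and in beige fat of the mouse.

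Each probe set of the deposited log2 table is centred on its own median, so the values give differences between samples and no level of any gene. In bulk tissue, fewer cells of a type and less RNA per cell cannot be told apart. The mean of the 2 arrays was used as the value of a replicate. In replicate 1 of BAT and replicate 3 of sWAT, 1 of the 2 arrays had a 5′ minus 3′ signal of Gapdh and Actb of -3.56 and -4.79 log2 units, where the other 14 arrays lay between -1.23 and 0.46. Xist was at 5.74, 6.26 and 6.36 in BAT replicates 1 to 3 and at -0.26 in BAT replicate 4, against -0.27 to -0.11 in the 4 sWAT replicates, and the mean of 3 Y-linked genes was -1.98, -2.17 and -2.33 in BAT replicates 1 to 3 and 0.18 in BAT replicate 4, against 0.20 to 0.39 in sWAT. BAT replicates 1 to 3 therefore went against the label male, and they differed in these genes from the sWAT replicates of the same numbers, which samples of the same mouse would not do. Apparent sex by these genes went with tissue in every sample but BAT replicate 4. For BAT replicates 1 to 3 the parts of tissue and sex in the differences cannot be told apart, and the part of sex was not tested. The replicate number was kept as a block despite this mismatch of same-numbered samples, after the paired test of the methods. Member calls that change without it are given beside the result. For genes outside the set, calls without the block are not given gene by gene. For each member probe set whose replicate values are printed, the difference of BAT replicate 4 from sWAT replicate 4 is also given, without a test. For genes outside the set it is not given.

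Of the 23 probe sets, 11 were higher in BAT and 2 were lower, with 10 not called (limma, adjusted p under 0.05 over all probe sets). The shares were 47.8% and 8.70% of the members, beside 15.1% higher and 17.3% lower among all 45101 probe sets. With a difference of at least 2-fold as well, 8 probe sets were higher and 2 lower, beside 6.10% and 9.56% of all probe sets. Averaged over the probe sets of each gene, Atp2a1, Atp2a2, Sln, Ryr1, Casq1 and Casq2 were higher in BAT, Atp2a3 was lower, and Pln, Ryr2 and Ryr3 were not called, where 21.0% of all genes were higher and 17.5% lower. The median difference was 1.22 log2 units over the 10 genes and 0.15 over all genes. The forms known from skeletal muscle thus stood at the high end of the set and the SERCA3 pump at the low end.

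**Figure D1:**
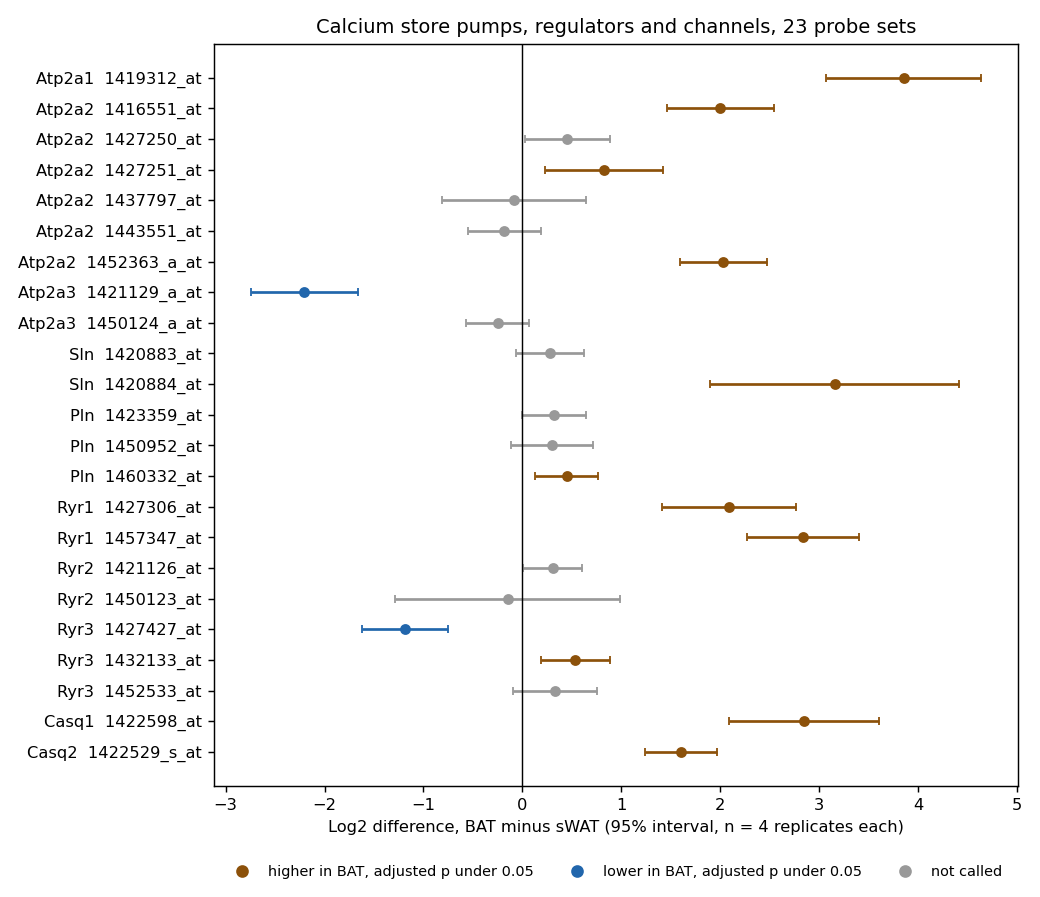
Log2 difference between BAT and sWAT (horizontal axis) for each of the 23 probe sets (rows, grouped by gene), with the 95% interval of the limma fit over 4 replicates per tissue. Points for Atp2a1, Sln 1420884_at, Ryr1, Casq1, Casq2 and the Atp2a2 probe sets 1416551_at and 1452363_a_at lie to the right of 1, and Atp2a3 1421129_a_at and Ryr3 1427427_at lie to the left of -1.

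The stretches upstream of the start sites are shown for the fast muscle members Atp2a1, Casq1 and Ryr1, which were higher in BAT together, for Casq2, and for Atp2a3, which moved the other way. A RefSeq window (GRCm38.p6) of 250 bases before and 50 after the start site was at hand for 7 of the 10 members, the others being Atp2a2, Sln and Ryr3. Each window was searched on both strands for the E-box CAGCTG, bound by myogenic factors, for TATAAA and for the MEF2 motif, which can overlap TATAAA. Capitals mark the matches in the 250 bases before the start site, written 5′ to 3′ on the strand of the gene.
Atp2a1, chr7:126463074-126463323, minus strand: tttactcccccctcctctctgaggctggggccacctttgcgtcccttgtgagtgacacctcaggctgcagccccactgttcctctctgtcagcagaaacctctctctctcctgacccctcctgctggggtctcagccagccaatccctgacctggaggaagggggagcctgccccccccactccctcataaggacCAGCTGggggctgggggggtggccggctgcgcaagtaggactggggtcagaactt
Casq1, chr1:172219896-172220145, minus strand: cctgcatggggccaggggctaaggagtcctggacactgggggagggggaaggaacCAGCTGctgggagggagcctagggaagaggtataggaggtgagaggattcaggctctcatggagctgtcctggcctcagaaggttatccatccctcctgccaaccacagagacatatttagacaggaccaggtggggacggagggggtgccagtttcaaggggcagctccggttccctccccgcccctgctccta
Ryr1, chr7:29125152-29125401, minus strand: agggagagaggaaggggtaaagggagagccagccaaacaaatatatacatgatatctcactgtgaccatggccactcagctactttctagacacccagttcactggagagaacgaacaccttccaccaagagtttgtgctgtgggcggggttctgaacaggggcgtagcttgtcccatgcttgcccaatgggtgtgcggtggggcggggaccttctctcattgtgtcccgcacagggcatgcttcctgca
Casq2, chr3:102086165-102086414, plus strand: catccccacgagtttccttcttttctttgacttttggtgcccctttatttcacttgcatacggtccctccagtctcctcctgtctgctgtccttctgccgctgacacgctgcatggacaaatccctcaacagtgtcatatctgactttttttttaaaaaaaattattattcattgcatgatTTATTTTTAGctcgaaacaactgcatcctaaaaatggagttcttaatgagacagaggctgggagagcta
Atp2a3, chr11:72960919-72961168, plus strand: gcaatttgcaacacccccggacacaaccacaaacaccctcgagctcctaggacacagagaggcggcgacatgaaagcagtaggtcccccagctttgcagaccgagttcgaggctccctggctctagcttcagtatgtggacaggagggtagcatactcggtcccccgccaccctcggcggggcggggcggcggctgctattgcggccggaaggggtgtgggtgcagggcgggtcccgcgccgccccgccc
CAGCTG was present in the windows of Atp2a1, Casq1 and Pln, at positions -55, -195 and 9 from the start site, and 16.3% of all 32851 windows held it. The MEF2 motif was present in the window of Casq2 alone, at -69, and in 3.19% of all windows. TATAAA was present in the window of Pln, at -219, and in 13.6% of all windows. The windows of Ryr1, Ryr2 and Atp2a3 held no match to these motifs.

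Atp2a1, the pump of fast muscle, showed the largest difference of the set. Its 1 probe set, 1419312_at, was at 1.81, 3.34, 1.90 and 3.41 in BAT replicates 1 to 4, against -1.15, -1.59, -1.27 and -0.94 in sWAT. BAT replicates 2 and 4 were the highest, replicates 1 and 3 lay over 1 unit below them, and the tissues did not overlap. Replicate 1 of BAT was at 2.76 on its first array and at 0.86 on the array of low 5′ signal. The part of that signal in the order of the replicates was not tested. The difference was 3.85 ± 0.33 log2 units (SE, n = 4 replicates each), a 14.4-fold higher signal in BAT (limma, adjusted p = 0.00028). It was 4.35 for replicate 4 alone.

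Atp2a2, the widely expressed pump, was higher in BAT at 3 of its 6 probe sets, and the probe sets disagreed in size. Probe set 1416551_at was at 1.71, 1.56, 0.74 and 0.32 in BAT, against -0.97, -0.72, -0.74 and -1.22 in sWAT, a difference of 2.0 ± 0.23 or 4.0-fold (limma, adjusted p = 0.00082). Probe set 1452363_a_at was at 1.18, 1.92, 1.44 and 0.78 in BAT, against -0.48, -0.42, -1.01 and -0.89 in sWAT, a difference of 2.03 ± 0.19 or 4.08-fold (limma, adjusted p = 0.00036). At both, BAT replicate 4 was the lowest BAT replicate and still above every sWAT replicate, in contrast to Atp2a1, for which it was the highest. In replicate 4 alone the differences were 1.53 and 1.67. The mean of 12 brown adipocyte genes, Ucp1 among them, was also lowest in BAT replicate 4, at 1.40, against 2.70 to 2.88 in the other BAT replicates and -2.30 to -1.41 in sWAT, and its part in the result was not tested.

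The other called probe set of Atp2a2, 1427251_at, was at 0.34, 0.42, 0.77 and 0.38 in BAT, against -0.04, -0.13, -1.06 and -0.14 in sWAT. The tissues did not overlap, and sWAT replicate 3 lay far below the other sWAT replicates. The difference was 0.82 ± 0.25 (limma, adjusted p = 0.045), 0.52 in replicate 4 alone and 0.48 without replicate number 3 (adjusted p = 0.051). The call was lost under 8 of 11 alternatives, each omission of a replicate number among them. The remaining probe sets were not called, at 0.45 ± 0.18 for 1427250_at, -0.09 ± 0.31 for 1437797_at and -0.18 ± 0.16 for 1443551_at. Over all 6 probe sets the gene mean differed by 0.84 ± 0.16 (limma, adjusted p = 0.0062 over genes). Which transcripts each probe set detects was not given in the sources used here.

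Atp2a3, the SERCA3 pump, went in the opposite direction. Probe set 1421129_a_at was at -0.90, -0.68, -0.46 and -0.08 in BAT, against 2.06, 1.58, 1.06 and 2.0 in sWAT. Every BAT replicate lay more than 1 unit below the lowest sWAT replicate. The difference was -2.20 ± 0.23 log2 units, a 4.60-fold lower signal in BAT (limma, adjusted p = 0.00058), with -2.07 in replicate 4 alone. The other probe set, 1450124_a_at, was not called at -0.25 ± 0.14 (adjusted p = 0.19), although BAT was below sWAT in each of the 4 replicate numbers. The gene mean differed by -1.23 ± 0.14 (limma, adjusted p = 0.00063).

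All 10 measured lymphocyte genes were lower in BAT, with a median difference of -4.11, where 21.0% of all genes were higher and 17.5% lower. Their mean lay between -1.95 and -1.57 in BAT, against 1.62 to 2.27 in sWAT, and the differences ranged from -0.83 ± 0.15 for Cd3e to -6.54 ± 0.25 for Ms4a1, which encodes CD20 of B cells. Platelet and megakaryocyte genes, another known site of SERCA3, did not pass the test at any of the 5 measured members, with a median of -0.13, from -0.42 ± 0.40 for Ppbp to 0.40 ± 0.15 for Gp9. The part of these cells in the Atp2a3 result was not tested.

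**Figure D2:**
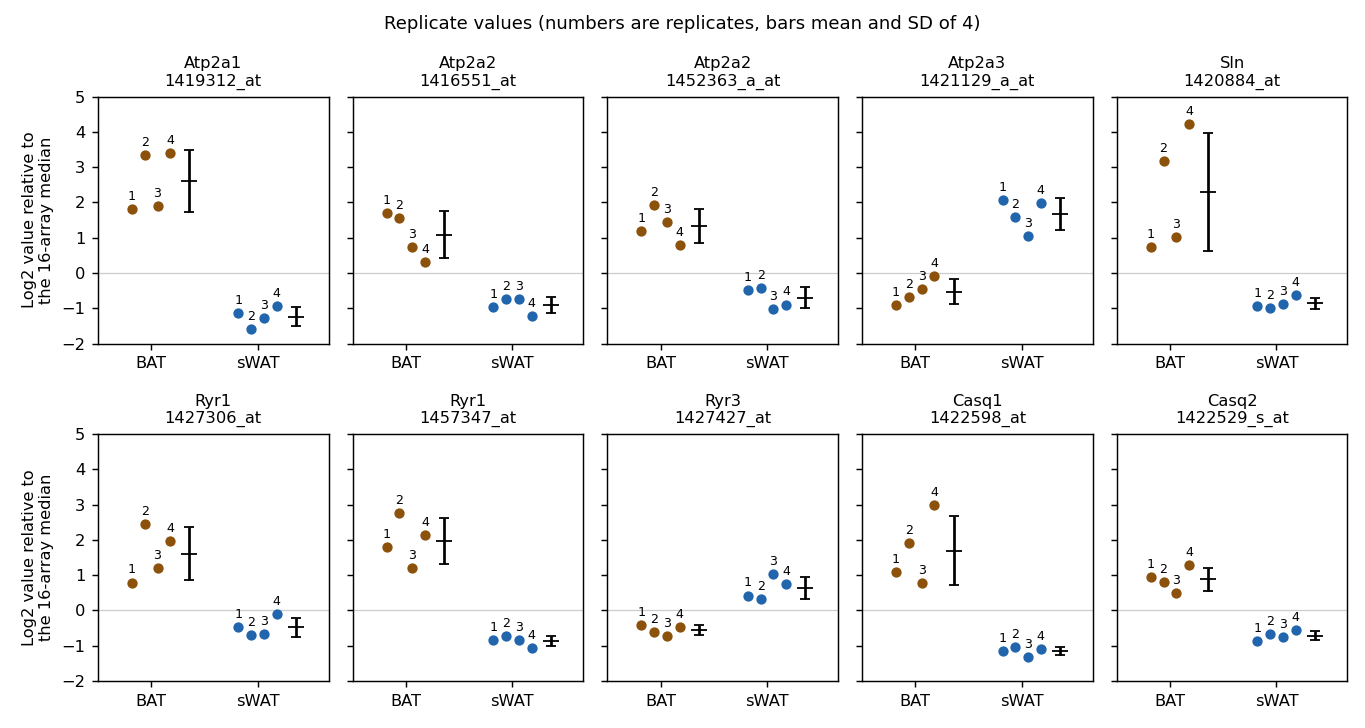
Log2 value relative to the median of the 16 arrays (vertical axis) in each BAT and sWAT replicate for 10 probe sets, with replicate numbers beside the points and bars for the mean and SD of 4 replicates. The 10 are the member probe sets called at an adjusted p under 0.05 with a difference of at least 2-fold, so that separation of the tissues was largely set by this choice. BAT lies above sWAT in 8 panels and below it for Atp2a3 and Ryr3 1427427_at, and among these panels BAT replicates spread widest at the Sln probe set.

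Sln, which encodes sarcolipin, was called higher at 1 of its 2 probe sets, with widely spread BAT replicates. Probe set 1420884_at was at 0.75, 3.18, 1.03 and 4.22 in BAT, against -0.94, -1.0, -0.89 and -0.62 in sWAT. BAT replicates 2 and 4 were more than 2 units above BAT replicates 1 and 3, and all 4 were above sWAT. The difference was 3.16 ± 0.53 log2 units, or 8.91-fold (limma, adjusted p = 0.0043), and 4.84 in replicate 4 alone. The second probe set, 1420883_at, was not called at 0.28 ± 0.15 (adjusted p = 0.18), so that the gene mean differed by 1.72 ± 0.30 (adjusted p = 0.0046).

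Pln, which encodes phospholamban of heart and slow muscle, differed little. Its probe sets 1423359_at, 1450952_at and 1460332_at were 0.32 ± 0.14, 0.30 ± 0.17 and 0.45 ± 0.14 higher in BAT, and 1460332_at was called (limma, adjusted p = 0.042). At that probe set BAT was at 0.15, 0.45, 0.00 and 0.16, against -0.17, -0.03, -0.32 and -0.51 in sWAT. The lowest BAT replicate lay just above the highest sWAT replicate, and the difference was 0.66 in replicate 4 alone. The call was lost under 8 of 11 alternatives, among them the first arrays alone, with a difference of 0.16 (adjusted p = 0.61), and each omission of a replicate number. Without the replicate block 1423359_at was called as well (adjusted p = 0.038). The gene mean, 0.36 ± 0.12, was not called (adjusted p = 0.056, 95% interval 0.07 to 0.64), but passed at an adjusted p of 0.012 in the fit without the replicate block. Another small regulator, Mrln, which encodes myoregulin of skeletal muscle, was higher in BAT by 0.85 ± 0.21 (adjusted p = 0.017), with 0.19, 0.36, 0.02 and 1.20 in BAT and -0.63, -0.23, -0.36 and -0.40 in sWAT. It was the 1 of 4 listed further regulators that had a probe set of its own symbol.

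Ryr1, the release channel of skeletal muscle, was higher in BAT at both of its probe sets. Probe set 1457347_at was at 1.79, 2.75, 1.21 and 2.12 in BAT, against -0.83, -0.72, -0.83 and -1.08 in sWAT, a difference of 2.84 ± 0.24 or 7.14-fold (limma, adjusted p = 0.00027). Probe set 1427306_at was at 0.79, 2.45, 1.21 and 1.98 in BAT, against -0.46, -0.71, -0.66 and -0.11 in sWAT, a difference of 2.09 ± 0.29 or 4.26-fold (limma, adjusted p = 0.0018). The tissues did not overlap at either, and BAT replicate 2 was the highest at both. In replicate 4 alone the differences were 3.20 and 2.09.

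Ryr2, the release channel of the heart, was not called at either probe set in the limma fit with the replicate block. At 1421126_at BAT was above sWAT in each of the 4 replicate numbers, by 0.30 ± 0.13 (adjusted p = 0.11) and by 0.26 in number 4 alone. That probe set was called without the block (limma, adjusted p = 0.031) and by the methods' t-test (adjusted p = 0.042). Probe set 1450123_at was at 1.84, -0.08, -0.10 and -0.54 in BAT, against -0.07, 0.75, 1.24 and -0.21 in sWAT, a difference of -0.15 ± 0.48 (adjusted p = 0.83) and of -0.33 in replicate 4 alone. BAT replicate 1 stood far above the other BAT replicates, and the tissues overlapped. Both arrays of that replicate were high, at 1.42 and, on the array of low 5′ signal, 2.25. Without replicate number 1 the difference was -0.83 with an adjusted p of 0.0497 (limma), so that this replicate number, which holds that BAT sample, decided the call. The 95% interval of the gene mean, -0.51 to 0.67, left room for a difference of either sign.

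Ryr3, the most broadly expressed of the channels, was lower at 1 probe set and higher at another. Probe set 1427427_at was at -0.40, -0.62, -0.73 and -0.48 in BAT, against 0.42, 0.32, 1.03 and 0.76 in sWAT, a difference of -1.19 ± 0.18, 2.28-fold lower in BAT (limma, adjusted p = 0.0029), and -1.23 in replicate 4 alone. Probe set 1432133_at was at 0.44, 0.35, 0.09 and 0.12 in BAT, against -0.34, -0.34, -0.28 and -0.17 in sWAT, a difference of 0.53 ± 0.15, 1.45-fold higher in BAT (adjusted p = 0.030), and 0.29 in replicate 4 alone. The call of 1432133_at was lost under 5 of 11 alternatives, with the second arrays alone (adjusted p = 0.11), with scaling to Gapdh and Actb (0.28), by the methods' t-test (0.087) and without replicate number 1 (0.090) or 2 (0.15). Neither overlapped between tissues, and the remaining probe set, 1452533_at, was not called at 0.33 ± 0.18. The gene mean of -0.11 ± 0.16 (adjusted p = 0.59) averages probe sets of opposite sign, and no single direction is given for Ryr3.

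Casq1, the calsequestrin of fast muscle, was at 1.09, 1.92, 0.78 and 2.99 in BAT, against -1.14, -1.05, -1.32 and -1.08 in sWAT (1422598_at). BAT replicate 4 was again the highest and replicate 3 the lowest, with no overlap. The difference was 2.85 ± 0.32 log2 units, or 7.19-fold (limma, adjusted p = 0.00078), and 4.08 in replicate 4 alone. Casq2, the calsequestrin of heart and slow muscle, was at 0.94, 0.81, 0.49 and 1.29 in BAT, against -0.87, -0.67, -0.77 and -0.57 in sWAT (1422529_s_at). The order of BAT replicates at its ends was the same, replicate 4 highest and replicate 3 lowest, over a narrower range. The difference was 1.60 ± 0.15 log2 units, or 3.03-fold (limma, adjusted p = 0.00043), and 1.86 in replicate 4 alone.

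When the 2 arrays of low 5′ signal were left out, differences were 4.07 for Atp2a1, 2.04 and 2.18 for Atp2a2 1416551_at and 1452363_a_at, -2.44 for Atp2a3 1421129_a_at, 3.27 for Sln 1420884_at, 2.29 and 3.06 for Ryr1, -1.07 for Ryr3 1427427_at, 2.96 for Casq1 and 1.68 for Casq2. Of the probe sets that were not called with all arrays, Atp2a2 1427250_at at 0.51 and Pln 1423359_at at 0.37 then passed (limma, adjusted p = 0.049 and 0.037). Atp2a1 was still the highest of these and Atp2a3 the lowest. The methods' t-test, which estimates the spread of each probe set from its own pairs, called 5 member probe sets higher and 1 lower after adjustment. By it the adjusted p was 0.052 for Atp2a2 1416551_at, 0.058 for Casq1, 0.064 for Ryr3 1427427_at, 0.071 for Ryr1 1427306_at and 0.10 for Sln 1420884_at, at the same differences. The probe sets Pln 1460332_at, Ryr3 1432133_at and Atp2a2 1427251_at were not called by it either (0.068, 0.087 and 0.20), while Ryr2 1421126_at was among the 5.

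Related members were then set against each other within each replicate, using gene means, in 7 pairs. Because values are relative, such a contrast does not say which of the genes is more abundant. It says whether the gap between the genes differs between tissues. All 7 contrasts were higher in BAT in every replicate, each with p = 0.0286 in an exact two-sided permutation test and 0.0286 after adjustment over the 7 pairs, the smallest value that 4 against 4 replicates can give. This test treats the replicates as unpaired. Sign changes of 4 pairs cannot give a two-sided p below 0.125, so that no paired exact test could pass. The contrasts reuse values whose tissue differences are given above, for members chosen with earlier results of these data known. Separation was therefore largely set beforehand, as for Atp2a1 minus Atp2a3, and the permutation p-values add no separate evidence. The 7 contrasts also share genes, and Atp2a1 minus Atp2a3 is the sum of the other pump contrasts. With every p at its smallest value, the adjustment changed nothing.

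Atp2a1 minus Atp2a3 had the widest gap, 2.95 ± 0.74 in BAT and -2.13 ± 0.17 in sWAT (SD, n = 4 each), a difference of 5.08. Atp2a1 minus Atp2a2 was 2.11 ± 0.97 in BAT and -0.91 ± 0.26 in sWAT, a difference of 3.01, and Atp2a2 minus Atp2a3 was 0.84 ± 0.49 in BAT and -1.23 ± 0.18 in sWAT, a difference of 2.07. The pumps were thus ordered Atp2a1, Atp2a2, Atp2a3 by how far BAT exceeded sWAT. With the probe set of largest variance in place of the gene mean, a choice added after the data were seen, Atp2a1 minus Atp2a2 differed by 1.85 with an adjusted p of 0.057 in the exact permutation test.

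Among the channels, Ryr1 minus Ryr3 was 1.83 ± 0.68 in BAT and -0.74 ± 0.20 in sWAT, a difference of 2.57. The Ryr3 mean averages probe sets of opposite sign, from -1.19 at 1427427_at to 0.53 at 1432133_at, so the size of this gap depends on the probe set. Ryr1 minus Ryr2 was 1.57 ± 1.06 in BAT and -0.81 ± 0.38 in sWAT, a difference of 2.38, with its lowest BAT value, 0.27, still above the highest in sWAT, -0.42. Sln minus Pln was 1.05 ± 0.85 in BAT and -0.31 ± 0.06 in sWAT, a difference of 1.36. The Sln mean averages 1420884_at, at 3.16, with 1420883_at, at 0.28 and not called. Since the Pln mean differed by 0.36, the Sln minus Pln contrast rested on 1420884_at. Casq1 minus Casq2 was 0.82 ± 0.73 in BAT and -0.43 ± 0.13 in sWAT, a difference of 1.25.

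Genes of skeletal muscle fibres moved with these members. All 25 measured fibre genes were higher in BAT, where 21.0% of all genes were. Their median difference was 3.56, between 1.70 ± 0.24 for Myoz1 and 6.47 ± 0.37 for Tnnc2, the fast troponin C. Their mean was 2.01, 2.86, 1.73 and 3.23 in BAT replicates 1 to 4, against -1.69 to -1.52 in sWAT, so that BAT replicates 4 and 2 were the highest here as they were for Atp2a1, Sln and Casq1. All 8 genes of slow fibres were higher too, from 2.75 ± 0.39 for Tnni1 to 5.62 ± 0.35 for Myl2, with a median of 3.51 and a mean of 2.46, 3.38, 1.04 and 2.82 in BAT against -1.26 to -1.20 in sWAT. The fibre list includes Ckmt2, at 5.55, which the study lists among genes higher in BAT of both mouse and human. Not every gene of the list is therefore particular to fibres. The part of muscle fibres in the results for the members was not tested, and since the values hold no level, whether any marker was at background cannot be stated.

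**Figure D3:**
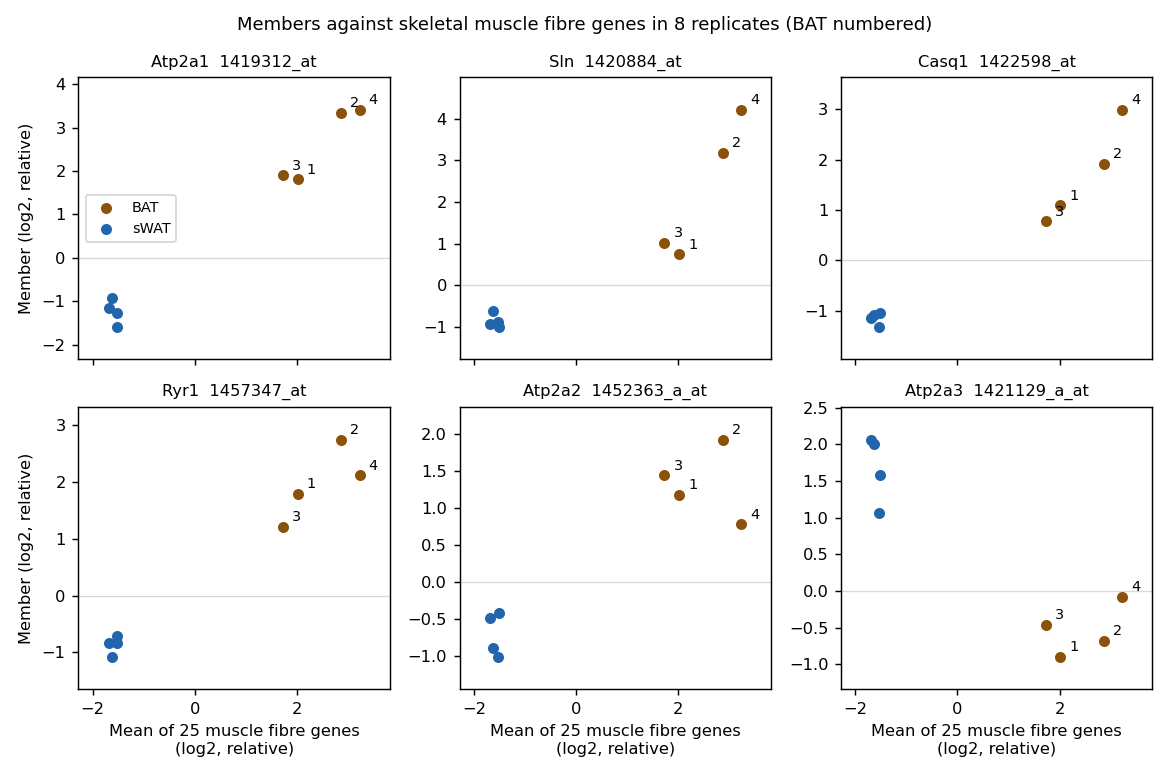
Value of 6 members (vertical axis, log2 relative to the 16-array median) against the mean of 25 skeletal muscle fibre genes (horizontal axis, same scale) in the 8 replicates, with BAT replicates numbered. Each member is shown at its probe set with the smallest adjusted p. Atp2a1, Sln 1420884_at and Casq1 are high in BAT replicates 2 and 4, where the fibre mean is 2.86 and 3.23. Atp2a2 1452363_a_at is lowest among BAT replicates in replicate 4, which does not hold at every Atp2a2 probe set.

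Genes of other muscle lineages were less uniform. Of 8 genes of myogenic cells, 3 were higher in BAT and 5 not called, with a median of 0.39, from 0.23 ± 0.13 for Musk to 2.19 ± 0.32 for Myf6. Of 7 heart genes, none was higher and Tnni3 was lower at -0.62 ± 0.15 (adjusted p = 0.016), while Tnnt2 was at 0.50 ± 0.35. Of 8 smooth muscle genes 4 were higher, with a median of 0.47, from -0.21 ± 0.15 for Synpo2 to 1.02 ± 0.17 for Cnn1. The Synpo2 value averages 4 probe sets of opposite sign, from -1.94 to 1.26. All 12 brown adipocyte genes were higher, with a median of 4.26 and a range from 0.80 ± 0.18 for Prdm16 to 7.58 ± 0.49 for Ucp1. Of 8 white adipocyte genes, 5 were lower and none higher, with a median of -1.64, from -3.22 ± 0.22 for Hoxc10 to 0.30 ± 0.13 for Tcf21.

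The 3 genes whose values lay nearest to Atp2a1, Ryr1, Casq1 and Sln over the 8 replicates were also listed. Likeness was the root mean square difference of the relative log2 values between gene means. For Atp2a1 the nearest were Pgam2, the muscle phosphoglycerate mutase, at 0.379, then Actn3 at 0.443 and Tnni2 at 0.456. For Ryr1 they were Pdlim3 at 0.288, Ppp1r27 at 0.327 and Mylk4 at 0.346, and for Casq1 they were Itgb1bp2 at 0.325, Fbp2 at 0.352 and Cox6a2 at 0.367. For Sln, whose mean includes the probe set that was not called, they were Myoz1 at 0.139, Rpl3l at 0.175 and Dhrs7c at 0.211. These distances describe 8 replicates and carry no test.

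Calcium handling beyond the members was followed in 8 lists with 73 further genes, of which 64 had a probe set naming them alone. Of these, 26 were higher in BAT, 13 were lower and 25 were not called, beside 21.0% higher and 17.5% lower among all genes, with a median of 0.22. Genes of excitation-contraction coupling and the triad, where the ryanodine receptor meets the membrane tubules of muscle, contributed 15 of the 26, with 1 of 20 lower, 4 not called and a median of 0.84. Srl, which encodes the lumenal protein sarcalumenin, was at 2.18, 2.18, 1.33 and 2.17 in BAT, against -1.77, -1.63, -1.58 and -2.02 in sWAT, a difference of 3.72 ± 0.21 (limma, adjusted p = 6.2e-05). Its BAT replicates 1, 2 and 4 were level and replicate 3 lower, so that it did not show the high values of replicates 2 and 4 seen for Sln.

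Several partners of the members were among the genes that rose. Trdn, which encodes triadin and ties calsequestrin to the ryanodine receptor, was higher by 2.17 ± 0.20, though its 6 probe sets ran from 0.14 to 4.08. Hrc, a histidine-rich calcium-binding protein of the lumen, was higher by 1.96 ± 0.26, and Jph1, a junctophilin that holds the store near the surface membrane, by 1.26 ± 0.17. Tmem38a and Tmem38b, potassium channels of the store membrane, were higher by 1.34 ± 0.15 and 1.51 ± 0.16. Stac3, needed for coupling in skeletal muscle, was higher by 0.83 ± 0.17. By contrast Cacna1s, the voltage sensor that opens Ryr1 in muscle, was at -1.0, 0.20, -0.42 and 0.78 in BAT, against 0.47, -0.04, -0.59 and -0.11 in sWAT, a difference of -0.04 ± 0.35 (adjusted p = 0.93) with overlapping tissues, but of 0.53 (adjusted p = 0.043) with the first array of each replicate alone. Asph, whose products include junctin and junctate, was not called at 0.38 ± 0.13 (adjusted p = 0.063), its 6 probe sets running from -0.60 to 1.94. Bin1, a shaper of the tubules, was called at -0.40 ± 0.12 (adjusted p = 0.041) with its 3 probe sets between -0.80 and 0.14, and the ryanodine receptor partners Fkbp1a and Fkbp1b were not called at 0.06 ± 0.17 and -0.28 ± 0.18.

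**Figure D4:**
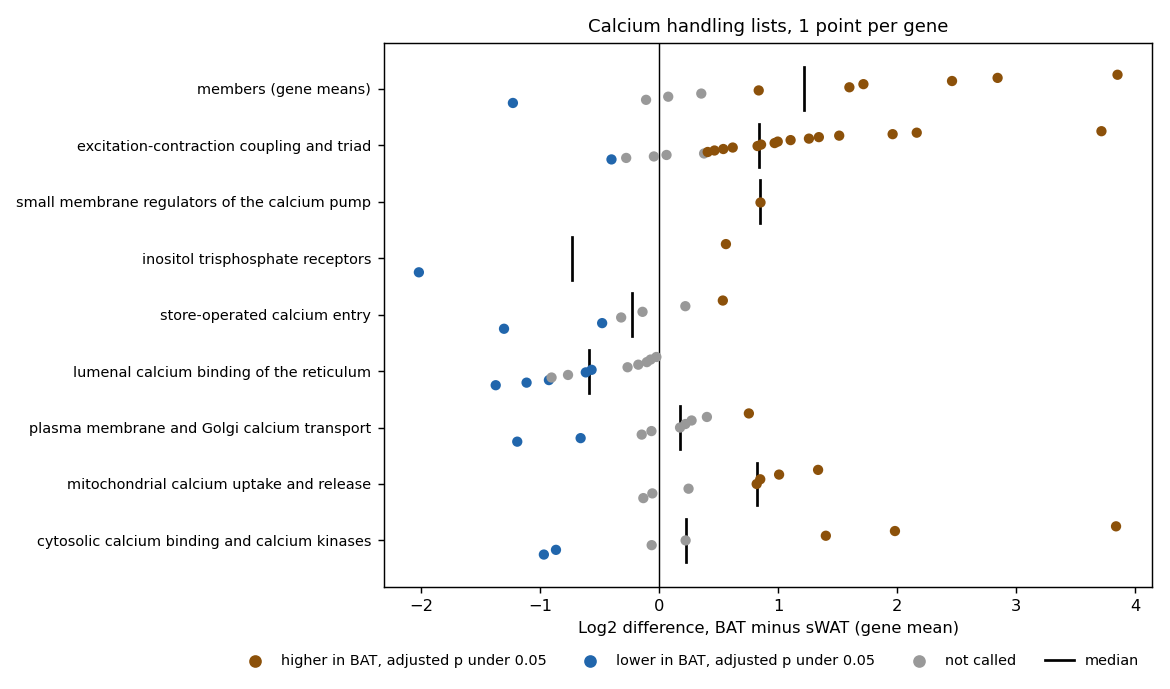
Log2 difference between BAT and sWAT of gene means (horizontal axis), 1 point per gene, for the 10 members and the 8 calcium handling lists (rows), with a vertical bar at each median. The coupling and triad row has 15 genes called higher and 1 lower, and the lumenal binding row has 5 called lower and none higher.

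The other release pathway of the store runs through inositol trisphosphate receptors. Of the 3 receptor genes listed, 2 had a probe set naming them alone, and these differed in direction. Itpr3 was at -0.64, -0.74, -0.56 and -0.29 in BAT, against 1.81, 1.34, 0.92 and 1.77 in sWAT, a difference of -2.02 ± 0.17 (limma, adjusted p = 0.00021). Itpr2 was higher in BAT by 0.56 ± 0.14 (adjusted p = 0.019), and neither gene overlapped between the tissues. Itpr3 thus had a difference close in size to that of Atp2a3 1421129_a_at, and in both sWAT replicate 3 was the lowest of the sWAT replicates. At Atp2a3 1421129_a_at that replicate was at 0.0038 on its array of low 5′ signal and at 2.12 on the other. The part of that signal in its rank was not tested.

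Of 6 genes of store-operated entry, which refills the store through the plasma membrane, 1 was higher and 2 were lower. Among all genes 21.0% were higher and 17.5% lower, and no reading is drawn from counts this small. Stim1, the sensor of store filling, was higher by 0.54 ± 0.15 (adjusted p = 0.031), while the entry channels Orai1 and Orai2 were lower at -0.48 ± 0.12 and -1.30 ± 0.11 (adjusted p = 0.021 and 0.00024). The other 3 of the 6 genes were not called, among them Saraf, which encodes a brake on entry, at -0.14 ± 0.19.

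The widely expressed calcium-binding proteins of the lumen did not follow the calsequestrins. None of 12 was higher in BAT and 5 were lower, with a median of -0.59, beside 21.0% higher and 17.5% lower among all genes. The lowest was Hsp90b1, the chaperone GRP94, at -1.37 ± 0.14 (adjusted p = 0.00050), followed by Nucb2 at -1.11 ± 0.20, Rcn1 at -0.92 ± 0.21, Pdia4 at -0.61 ± 0.14 and Hspa5, the chaperone BiP, at -0.57 ± 0.15. Probe sets of opposite sign were averaged for Pdia4, from -1.78 to 0.55, and for Hspa5, from -1.20 to 0.30. Calr, which encodes calreticulin, the main buffer of the store in cells other than muscle, was at -0.76 ± 0.34 and was not called (adjusted p = 0.12), and Calu lay nearest 0 at -0.02 ± 0.16.

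Among pumps and exchangers outside the reticulum, 1 of 9 was higher and 2 were lower, beside the 21.0% and 17.5% of all genes, so that the list did not stand apart by its counts. Slc8a3, a sodium-calcium exchanger of muscle and nerve, was higher by 0.76 ± 0.15 (adjusted p = 0.0076). The plasma membrane pumps Atp2b1 and Atp2b4 were lower at -1.19 ± 0.14 and -0.66 ± 0.14 (adjusted p = 0.00084 and 0.0092), and Slc8a1, the exchanger of heart and many other cells, was at -0.06 ± 0.12. Of 7 genes of mitochondrial calcium uptake and release, 4 were higher, Vdac1 by 1.34 ± 0.18, Micu3 by 1.01 ± 0.20, Letm1 by 0.85 ± 0.17 and Smdt1 by 0.82 ± 0.18. Mcu, the pore of the uniporter, was not called at 0.25 ± 0.13 (adjusted p = 0.15), and Micu2 and Slc8b1 lay at -0.06 ± 0.18 and -0.13 ± 0.30.

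In the cytosol, Pvalb, which encodes the calcium buffer parvalbumin of fast fibres, was at 1.55, 2.34, 1.49 and 5.21 in BAT, against -1.58, -0.73, -1.13 and -1.34 in sWAT. BAT replicate 4 stood far above the other BAT replicates, and the difference was 3.84 ± 0.61 (limma, adjusted p = 0.0028). S100a1, which binds Ryr1 and SERCA, and the kinase Camk2b were higher by 1.98 ± 0.16 and 1.40 ± 0.16. The kinase Camk2d and Sri, which encodes sorcin, a regulator of ryanodine receptors, were lower at -0.87 ± 0.13 and -0.97 ± 0.18, though the 7 probe sets of Camk2d ran from -2.47 to 0.15, and Camk2g was at -0.06 ± 0.13.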

How the data were processed

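RNA of BAT and sWAT was hybridized to Affymetrix mouse genome arrays, 8 per tissue, as 4 replicates with 2 arrays each, called biological and technical in the labels. The deposited log2 values were made by the authors with RMA and quantile normalization in GeneSpring, and each probe set was centred on its median over all arrays. The 2 arrays of a replicate were averaged. The linear models of limma 3.58.1, moderated by eBayes, were run in R 4.3.3 on BAT minus sWAT. Replicate number entered as a block, since the methods take both tissues from each mouse and use a paired test. P-values were adjusted by Benjamini-Hochberg over 45101 probe sets or 18194 genes, a gene being the mean of its probe sets that name 1 symbol. A probe set or gene was called at an adjusted p under 0.05. Of all probe sets, 34958 name 1 symbol, 932 several and 9211 none.

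Same-numbered samples of the tissues did not deviate together (correlations of -0.23, 0.06, -0.35 and 0.23), numbers 1 to 3 differ between the tissues in Xist and Y-linked genes, and the labels do not tie numbers to mice. With the block, limma p-values measure the spread of the differences between same-numbered samples, moderated over all probe sets or genes. They cannot be read as a spread within mice. Pairs of forms were compared by exact permutation of the 8 replicates in Python 3.11.15. The text names every member, the highest, lowest and nearest-to-0 genes of each list with up to 3 that act on a member, the ends of each cell type list with up to 4 defining genes, and the 3 genes nearest to each of 4 members. Further list genes (Asph, Hrc, Jph1, Stac3, Tmem38a, Tmem38b, Orai1, Nucb2, Rcn1, Pdia4, Hspa5, Calr, Atp2b4, Micu3, Letm1, Smdt1, Mcu, Camk2b and Camk2d) were picked after their values were seen. Members and lists were chosen with earlier results of these data known. Alternatives were the fit without the block, either array alone, exclusion of arrays of low 5′ signal, other scalings, the paired t-test of the methods, leaving out each replicate number and other choices of probe set. The limma step was tested on simulated data. Stated errors rest on 4 replicates per tissue. Figures were drawn with matplotlib 3.10.9.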

Additional observations from a re-analysis of the deposited data

Results flagged for a closer look

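In sWAT, replicate 3 stood apart from the others at the Atp2a2 probe set 1427251_at, with -1.06 against -0.14 to -0.04 in the other 3 replicates. Its gap to the nearest replicate was 0.907 of the range of the group, above Dixon's critical value for 4 samples. The first array of that replicate, 1 of the 2 arrays of low 5′ signal, was at -1.52 and the second at -0.59, and the part of that signal in the value was not tested. Of 46 groups of 4 replicates examined over the member probe sets, this was the 1 that stood out, where chance picks about 5% of groups.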

How the results depend on the processing

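No called difference changed sign under any alternative that was run. Without the replicate block, 13 member probe sets were higher in BAT and 2 lower, with 7 member genes higher and 1 lower and 29 pathway genes higher and 12 lower. The paired t-test of the methods called 5 member probe sets higher and 1 lower, and 10 pathway genes higher and 6 lower; it uses the spread of 4 pairs of each probe set alone. Over all genes 6989 were called, against 3567 by that test, 3771 with scaling to Gapdh and Actb and 4627 without replicate 2. With the probe set of largest variance in place of the gene mean, 2 member genes were lower, Ryr3 joining Atp2a3, and Atp2a1 minus Atp2a2 differed by 1.85 (an alternative added after the data were seen). With the second arrays alone, Ryr1 minus Ryr2 differed by 1.98 (exact permutation test, adjusted p = 0.086), and the cause was not tested. Without the arrays of low 5′ signal, 13 member probe sets were higher and 2 lower. Leaving out each replicate number in turn, 8 to 10 member probe sets were higher and 2 to 3 lower, and 8 to 14 pathway genes were lower, 8 without replicate 2. The gaps between forms then ranged over 2.72 to 3.32 for Atp2a1 minus Atp2a2, 4.74 to 5.39 for Atp2a1 minus Atp2a3, 1.97 to 2.21 for Atp2a2 minus Atp2a3, 1.04 to 1.65 for Sln minus Pln, 1.99 to 2.89 for Ryr1 minus Ryr2, 2.36 to 2.86 for Ryr1 minus Ryr3 and 0.92 to 1.52 for Casq1 minus Casq2, where 3 against 3 replicates cannot give an exact p below 0.10. Values near 0 that were not called took the other sign in some settings. With the first arrays alone, Cacna1s was at 0.53, Slc8b1 at 0.30, Calu at 0.064, Micu2 at 0.024 and Ryr2 at -0.042. With the second arrays alone, Atp2a2 1437797_at was at 0.0089, Ryr2 1450123_at at 0.16, Fkbp1a at -0.15 and Fkbp1b at 0.13. Without the arrays of low 5′ signal Cacna1s was at 0.11, with scaling to Gapdh and Actb Calu was at 0.0027, and at its most variable probe set Ryr2 was at -0.15. With each replicate number left out, the range was -0.50 to 0.12 for Atp2a2 1437797_at, -0.83 to 0.25 for Ryr2 1450123_at, -0.25 to 0.26 for Ryr2, -0.22 to 0.025 for Ryr3, -0.35 to 0.43 for Cacna1s, -0.077 to 0.21 for Fkbp1a, -0.30 to 0.015 for Saraf, -0.20 to 0.071 for Calu, -0.53 to 0.12 for Slc8b1, -0.24 to 0.067 for Micu2, -0.13 to 0.026 for Camk2g, -0.0059 to 0.70 for Tnnt2 and -0.93 to 0.022 for Ppbp. The causes were not tested. Of the values of single probe sets and genes over all alternatives, 905 kept their sign and their side of the threshold, 91 lost a call, 25 gained one and 32 changed sign. The calls of Pln 1460332_at, Ryr3 1432133_at and Atp2a2 1427251_at were lost under several alternatives. The values carry no signal level, so detection above background cannot be judged. The 2 arrays of a replicate differed by a median of 0.499 log2 units at member probe sets where 1 of them had low 5′ signal, and by 0.175 elsewhere.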
